A study of Mus musculus with 2 samples.

Results

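The genes described here are 10 transcripts tied to the tumour suppressor p53 or to stress signals that slow cell growth: Cdkn1a, Ccng1, Plk2, Mdm2, Trp53inp1, Zmat3, Phlda3, Sesn1, Sesn2 and Ddit4. They were chosen by symbol, and all 10 had a value among the 10982 genes of the table. RNA sequencing compared an antagomir library, from mouse neonatal cardiomyocytes in which the piRNA FERPIR was knocked down with a chemically modified antisense oligonucleotide, with a control library, from the same kind of cells given a negative control. The piRNAs are short RNAs that PIWI proteins bind. There was 1 library per group. Both samples also carry a treatment label that reads PBS. Levels are in FPKM, a fragment count corrected for the length of the transcript and the size of the library, so they can be set side by side between genes. No difference has a replicate check or a p-value, and each value describes these 2 libraries. The labels do not say how pure the cultures were, and in bulk RNA fewer cells of a type cannot be told apart from less RNA per cell.

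p53 is a transcription factor that is normally kept scarce by the ubiquitin ligase MDM2 and builds up after DNA damage and other stress. Its target genes halt the cell cycle, favour repair or death, dampen growth signals and, through Mdm2 itself, restrain p53 again. Several of them also answer to other inputs: Sesn2 and Ddit4 are induced through ATF4, the transcription factor of the integrated stress response, and Ddit4 further responds to hypoxia. The sestrins and the product of Ddit4 both hold back TORC1, the kinase complex that drives protein synthesis and cell growth. In the newborn heart, cardiomyocytes leave the cell cycle soon after birth, and Cdkn1a is among the genes associated with that exit.

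The antagomir library had higher levels of Phlda3, Ddit4 and Sesn1 and lower levels of Sesn2, Plk2, Mdm2 and Trp53inp1 than the control library, while Cdkn1a, Ccng1 and Zmat3 lay within 1.5-fold. Differences are given as a log2 ratio, log2 of (antagomir FPKM + 1) over (control FPKM + 1), and folds are on the same scale, which understates differences of low genes. At a limit of 1.5-fold, 3 of the 10 genes were higher and 4 lower. Among the 10201 genes that reached 1 FPKM in the higher library, 10.8% were 1.5-fold higher and 13.4% were 1.5-fold lower. At 2-fold, 1 gene was higher, Phlda3, and 1 was lower, Sesn2, beside 2.88% and 3.79% of all genes. The median log2 ratio of the 10 genes was -0.20, against -0.048 over all genes, and their SD across genes was 0.74, against 0.55. After rescaling to TPM, 1 of the 10 genes was 1.5-fold higher, Phlda3, and 4 were 1.5-fold lower, beside 10.5% and 20.0% of all genes.

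**Figure D1:**
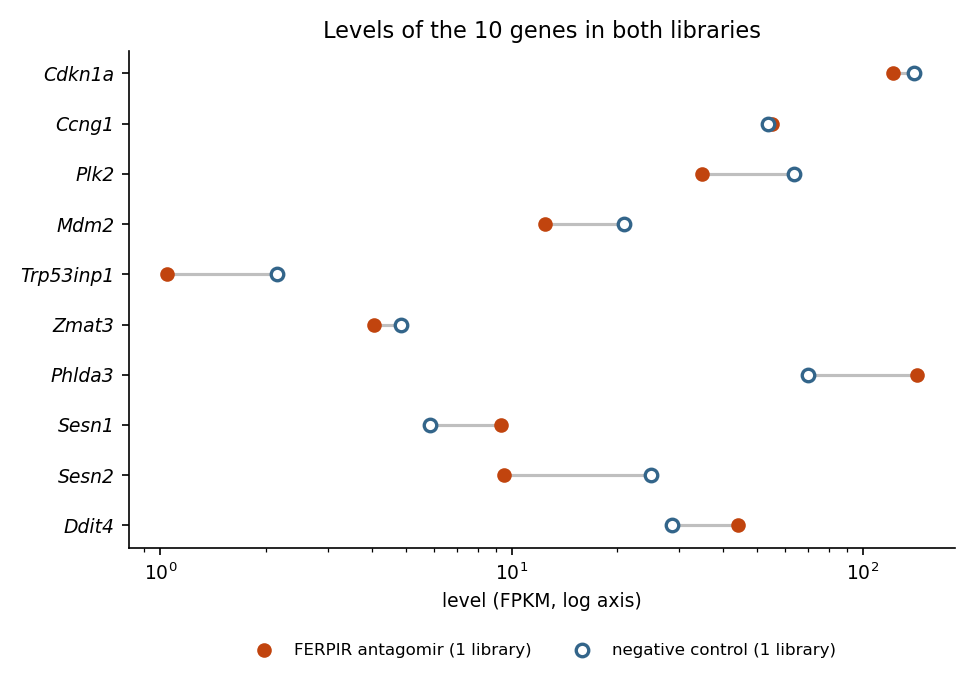
Level of each of the 10 genes (FPKM, log axis) in the antagomir library (filled points) and the control library (open points), 1 library each and therefore no error bars. Phlda3 lies highest in the antagomir library, at 143 FPKM, and Cdkn1a highest in the control library, at 140.0 FPKM; Trp53inp1 is lowest in both.

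Promoter sequences are shown for some of the 10 genes, since p53 and ATF4 are transcription factors that bind DNA. RefSeq windows of 250 bases before to 50 bases after the annotated start (build GRCm38.p6) were found for 8 of the 10 genes, in 10 windows, with 2 starts each for Cdkn1a and Sesn1; Trp53inp1 and Zmat3 had no entry. The consensus decamer bound by p53, with no mismatch, was searched on both strands, as was a pair of such decamers at most 13 bases apart with at most 1 mismatch in all. The third search was for TGATGNAA, a core of the element bound by ATF4 with its C/EBP partners. Capitals mark p53 decamers and pairs. The windows of Phlda3, Plk2, Sesn1 and the downstream start of Cdkn1a were searched but are not printed. No exact match to TGATGNAA was found in these 10 windows, and inexact matches to it were not searched.

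Cdkn1a, upstream start, chr17:29090729-29091028, plus strand: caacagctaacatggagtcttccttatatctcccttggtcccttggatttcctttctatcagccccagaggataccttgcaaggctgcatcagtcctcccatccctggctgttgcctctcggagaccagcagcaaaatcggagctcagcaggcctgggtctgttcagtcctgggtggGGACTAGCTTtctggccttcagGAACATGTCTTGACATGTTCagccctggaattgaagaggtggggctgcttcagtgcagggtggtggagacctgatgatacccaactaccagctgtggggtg
Ccng1, chr11:40755237-40755536, minus strand: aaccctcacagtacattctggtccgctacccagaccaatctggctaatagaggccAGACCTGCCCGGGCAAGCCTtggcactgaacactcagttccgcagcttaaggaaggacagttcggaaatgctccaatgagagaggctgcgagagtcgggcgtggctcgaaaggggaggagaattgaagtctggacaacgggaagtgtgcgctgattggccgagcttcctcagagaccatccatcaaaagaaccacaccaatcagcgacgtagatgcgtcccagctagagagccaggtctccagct
Mdm2, chr10:117710709-117711008, minus strand: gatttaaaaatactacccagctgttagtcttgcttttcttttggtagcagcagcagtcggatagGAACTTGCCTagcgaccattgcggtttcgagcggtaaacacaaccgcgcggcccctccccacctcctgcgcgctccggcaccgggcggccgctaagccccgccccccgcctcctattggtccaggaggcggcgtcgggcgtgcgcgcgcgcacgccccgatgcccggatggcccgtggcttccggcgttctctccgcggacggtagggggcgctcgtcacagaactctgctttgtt
Sesn2, chr4:132510407-132510706, minus strand: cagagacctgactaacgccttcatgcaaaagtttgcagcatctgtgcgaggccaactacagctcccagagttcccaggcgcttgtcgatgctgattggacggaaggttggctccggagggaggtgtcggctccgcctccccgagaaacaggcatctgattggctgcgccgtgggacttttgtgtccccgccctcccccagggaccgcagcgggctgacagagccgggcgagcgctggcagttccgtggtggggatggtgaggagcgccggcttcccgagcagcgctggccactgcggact
Ddit4, chr10:59951721-59952020, minus strand: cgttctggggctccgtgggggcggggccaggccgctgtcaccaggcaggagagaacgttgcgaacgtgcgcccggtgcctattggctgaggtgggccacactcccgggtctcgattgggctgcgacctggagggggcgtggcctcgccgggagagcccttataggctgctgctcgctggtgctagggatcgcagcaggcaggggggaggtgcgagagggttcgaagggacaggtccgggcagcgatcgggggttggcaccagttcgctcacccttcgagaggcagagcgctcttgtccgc

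The window of the upstream Cdkn1a start holds the pair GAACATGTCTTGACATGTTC, 51 bases before that start, with no spacer and 1 mismatch. A further decamer, GGACTAGCTT, starts 73 bases before the same start and forms a pair with GAACATGTCT at a spacer of 12 bases and with 0 mismatches. The window of the downstream Cdkn1a start holds no decamer and no pair. Ccng1 holds the pair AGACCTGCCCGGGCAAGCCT, 195 bases before its start, with no spacer and 1 mismatch. Mdm2 holds the single decamer GAACTTGCCT, and the downstream start of Sesn1 holds AAGCTTGTTT. Decamers were thus found in 4 of the 10 windows, against 8.36% of 32851 windows of the same length, and pairs in 2 of the 10, against 0.627% of windows. The genes were picked for their ties to p53 or to stress signals, so these shares describe that choice and not the 2 libraries. The genes that hold a decamer include Cdkn1a and Ccng1, which lay within 1.5-fold, Mdm2, which was lower in the antagomir library, and Sesn1, which was higher. No decamer was found in the windows of Phlda3, Plk2, Sesn2 and Ddit4. TGATGNAA was in 0 of the 10 windows, against 3.97% of all windows. Counted by gene, 10 of 27 other genes of a list of ATF4 targets had it. Sequence outside the windows of Sesn2 and Ddit4 was not searched, so whether these genes have the element elsewhere was not tested. A match is a description of letters and not a bound site, and the best known p53 elements of Mdm2 lie in its first intron, outside this window.

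Among the genes that act on the cell cycle, Cdkn1a encodes p21, an inhibitor of cyclin-dependent kinases and the best known p53 target. It lies on chromosome 17 from 29090979 to 29100722 in build GRCm38. Cdkn1a had 122 FPKM in the antagomir library and 140.0 FPKM in the control library, a log2 ratio of -0.20. It was therefore an abundant transcript in both, above 95.7% of all genes in the antagomir library and above 96.6% in the control library. Its exons overlap those of another annotated locus, and since strand use in counting is not given, its value is uncertain. Ccng1, which encodes cyclin G1, a p53-induced partner of the phosphatase PP2A, lies on chromosome 11 from 40748552 to 40755311. Ccng1 had 55.1 FPKM in the antagomir library and 53.7 FPKM in the control library, a log2 ratio of 0.036 that became -0.046 after rescaling to TPM. Plk2, a polo-like kinase with a part in centriole duplication and in checkpoint control, lies on chromosome 13 from 110395046 to 110400844. Plk2 had 34.9 FPKM in the antagomir library and 63.6 FPKM in the control library, a log2 ratio of -0.85 or 1.80-fold lower. It ranked 5 among the 10 levels in the antagomir library, against 3 in the control library.

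Of the genes that act on p53 or with it, Mdm2 encodes the ubiquitin ligase that marks p53 for degradation. It lies on chromosome 10 from 117688875 to 117710758 and has 9 annotated transcripts, which the gene-level value does not separate. Mdm2 had 12.5 FPKM in the antagomir library and 20.9 FPKM in the control library, a log2 ratio of -0.70. The p53 gene itself, Trp53, was lower by a like amount, with 28.7 and 47.4 FPKM in the antagomir and control libraries and a log2 ratio of -0.70, so Mdm2 stood at 0.434 of the FPKM of Trp53 in the antagomir library and at 0.440 in the control library. These are transcript levels, whereas p53 is controlled mostly as a protein, which was not measured. Trp53inp1, whose product supports p53 phosphorylation and autophagy, lies on chromosome 4 from 11156431 to 11174379. Trp53inp1 was the lowest of the 10 genes in both libraries, with 1.04 FPKM in the antagomir library and 2.15 FPKM in the control library. Its log2 ratio was -0.62, while the plain quotient of these values is 2.06, so the size of this difference depends on the pseudocount. Zmat3, a zinc finger protein that binds RNA, lies on chromosome 3 from 32334792 to 32366014. Zmat3 had 4.06 FPKM in the antagomir library and 4.86 FPKM in the control library, a log2 ratio of -0.21 that was -0.011 once corrected for transcript length and GC content.

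**Figure D2:**
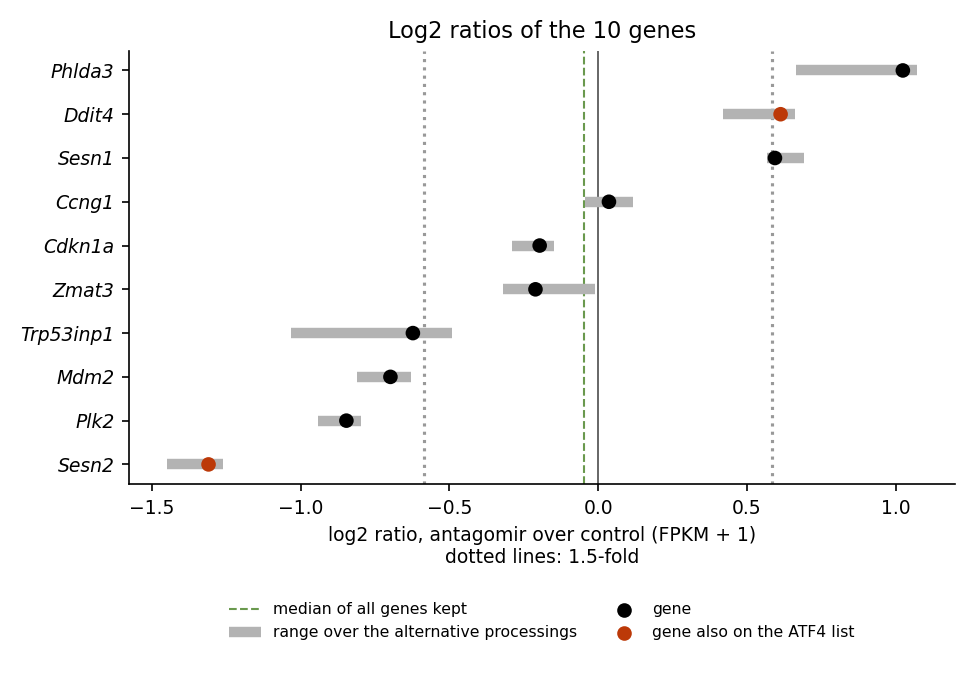
Log2 ratio (antagomir over control, FPKM + 1) of each of the 10 genes as a point, with its range over the main and alternative processings as a grey bar; dotted lines mark 1.5-fold and the dashed line the median of all genes. Sesn2, Plk2 and Mdm2 stay beyond the lower line and Phlda3 beyond the upper line over the whole bar, while the bars of Ddit4, Sesn1 and Trp53inp1 cross a line.

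The growth brakes pointed in both directions. Phlda3, a small pleckstrin homology protein that competes with the kinase AKT for membrane lipids, lies on chromosome 1 from 135766119 to 135769136. Phlda3 had 143 FPKM in the antagomir library and 69.7 FPKM in the control library, a log2 ratio of 1.02. Only 270 of the 10201 genes had a higher log2 ratio. Its longest annotated transcript has 1435 bases, in the shortest of 5 equal groups of genes by length, where the median log2 ratio was 0.26. Corrected for the trend with length and GC content, the log2 ratio of Phlda3 was 0.67, still past 1.5-fold but not 2-fold.

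Sesn1 and Sesn2 encode sestrins, stress-induced proteins that bind the GATOR2 complex and thereby hold TORC1 inactive; the product of Sesn2 also senses leucine. Sesn1 lies on chromosome 10 from 41809935 to 41908424 and Sesn2 on chromosome 4 from 132492032 to 132510501. Sesn1 had 9.35 FPKM in the antagomir library and 5.86 FPKM in the control library, a log2 ratio of 0.59. Sesn2 had 9.49 FPKM in the antagomir library and 25.0 FPKM in the control library, a log2 ratio of -1.31 or 2.48-fold lower. The related genes therefore stood at nearly the same level in the antagomir library, with 1.02 times as much Sesn2 as Sesn1, against 4.27 times in the control library. Sesn3, the remaining sestrin, had 0.70 and 0.45 FPKM in the antagomir and control libraries and did not reach 1 FPKM. Only 185 genes had a lower log2 ratio than Sesn2, and its value was -1.33 after correction for length and GC content.

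**Figure D3:**
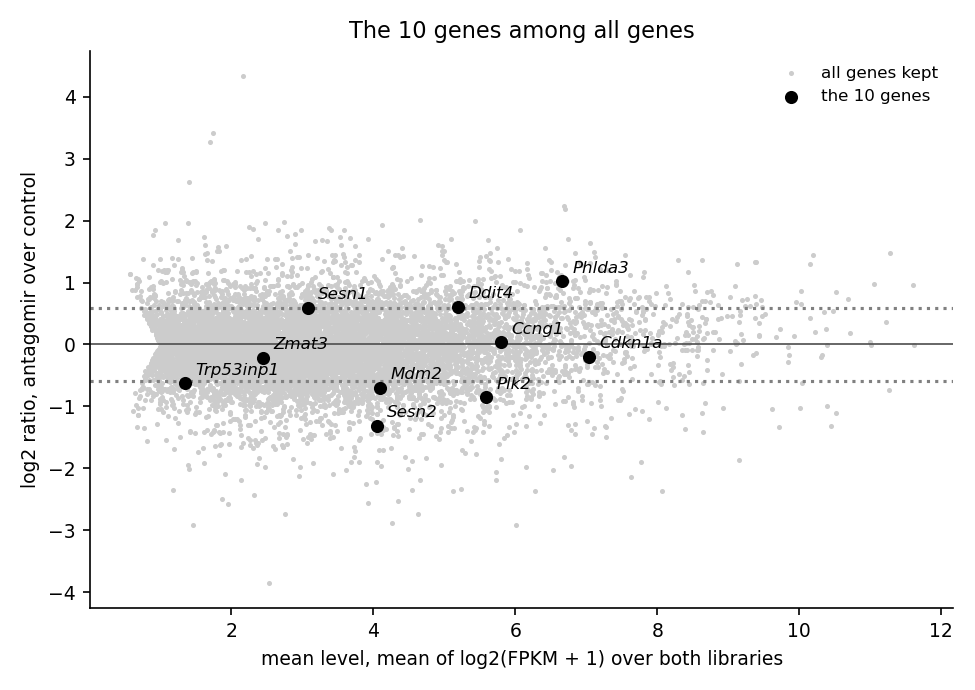
Log2 ratio (antagomir over control) against mean level (mean of log2(FPKM + 1) over both libraries) for the 10201 genes that reached 1 FPKM in the higher library (grey), with the 10 genes in black and dotted lines at 1.5-fold. Phlda3 and Sesn2 lie nearest the edges of the cloud, and Cdkn1a and Ccng1 near its middle at high levels.

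Ddit4 encodes REDD1, which releases the TSC complex to switch TORC1 off, and lies on chromosome 10 from 59949669 to 59951834. Ddit4 had 44.2 FPKM in the antagomir library and 28.6 FPKM in the control library, a log2 ratio of 0.61 or 1.53-fold higher. Its transcript of 1755 bases is in the same length group, and its log2 ratio was 0.42, under 1.5-fold, after correction for length and GC content. Sesn2 and Ddit4 are the genes here that ATF4 also drives, and their log2 ratios had opposite signs. Per unit of Ddit4 the FPKM of Sesn2 was 0.215 in the antagomir library and 0.876 in the control library. A list of 30 ATF4 targets with values includes both genes. Of these 30, 22 passed the 1.5-fold limit downward and 1, Ddit4, upward, beside 13.4% and 10.8% of all genes. The median log2 ratio of the other 28 was -1.07, and their highest was 0.080, for Atf5, so that Sesn2 lay within the range of these genes and Ddit4 above it. Trib3, a pseudokinase induced by ATF4, had 132 FPKM in the antagomir library and 240.4 FPKM in the control library. Atf4 itself had 406 and 563 FPKM, also lower in the antagomir library, with a log2 ratio of -0.47. Without Sesn2 and Ddit4, the remaining 8 genes had a median log2 ratio of -0.20, with 2 past the 1.5-fold limit upward and 3 downward. Over all genes outside the ATF4 list, the median was -0.046, with 10.8% past the limit upward and 13.2% downward.

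Ratios between genes of 1 library do not depend on how that library was scaled, but they are not corrected for length and GC content. Each ratio given here includes Cdkn1a, whose value is uncertain because its exons overlap those of another annotated locus. Phlda3 stood at 1.17 times the FPKM of Cdkn1a in the antagomir library and at 0.498 times in the control library. Plk2 stood at 0.286 of Cdkn1a in the antagomir library and at 0.454 in the control library, and Mdm2 at 0.102 and 0.149. Cdkn1a exceeded Cdkn1b, the gene of the related inhibitor p27, 12.6-fold in the antagomir library and 8.97-fold in the control library. Against Ccnd1, the gene of cyclin D1, whose exons overlap those of another gene, the level of Cdkn1a was 2.40-fold in the antagomir library and 7.75-fold in the control library. This last quotient moved through Ccnd1, with 50.8 and 18.1 FPKM in the antagomir and control libraries, more than through Cdkn1a.

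**Figure D4:**
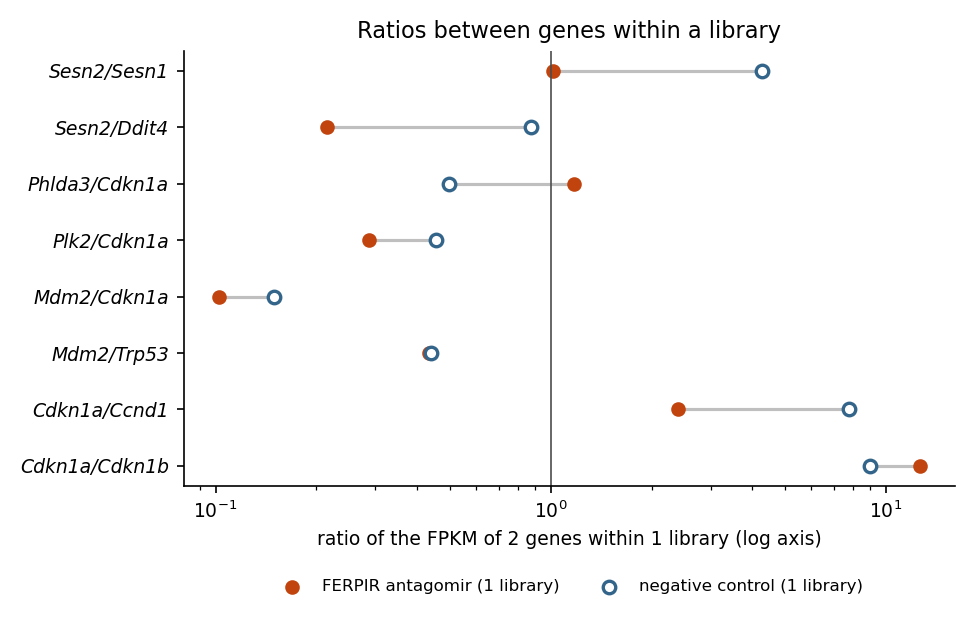
FPKM of 1 gene divided by that of another within the antagomir library (filled points) and within the control library (open points), on a log axis, 1 library each. Sesn2 per Sesn1 is 1.02 in the antagomir library and 4.27 in the control library, whereas Mdm2 per Trp53 is 0.434 and 0.440.

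Lists of genes around the 10 give the setting. Of 48 further p53 targets, 40 had a value and 39 reached 1 FPKM. Of these 39, 5 passed the 1.5-fold limit upward and 10 downward, with a median log2 ratio of -0.083. Over all genes, 10.8% passed it upward and 13.4% downward. With overlapping genes left out, which leaves fewer than 39, the counts of this list were 2 and 6, beside 11.3% and 13.8% of all genes. Corrected for length and GC content they were 3 and 10, beside 8.65% and 12.3% of all genes. The lower end of this list held Gdf15, a stress-induced cytokine that is an ATF4 target as well, with 6.06 FPKM in the antagomir library and 50.9 FPKM in the control library, and Ndrg1, which also responds to hypoxia, with 81.5 and 223 FPKM. Toward the other end Bax, a pore-forming mediator of apoptosis, had 159.9 FPKM in the antagomir library and 88.8 FPKM in the control library. The log2 ratio of Bax was 0.84, and 0.36 after correction for length and GC content. Its exons, like those of Ndrg1, overlap another annotated gene.

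Among p53 and its regulators, 22 of 25 listed genes reached 1 FPKM, with a median log2 ratio of -0.14. Of these, 2 were past the 1.5-fold limit upward and 3 downward, or 1 and 2 once corrected for length and GC content. Over all genes the shares were 10.8% and 13.4%, or 8.65% and 12.3% once corrected. Usp7, a deubiquitinase of MDM2 and p53, had 5.73 FPKM in the antagomir library and 9.61 FPKM in the control library. Mdm4, the partner of MDM2 in restraining p53, had 2.69 and 3.23 FPKM. Ppm1d, a phosphatase that ends p53 signalling and a p53 target itself, had 7.90 and 7.40 FPKM, so neither passed the limit. Rpl11, a ribosomal protein that can bind MDM2, had 379 FPKM in the antagomir library and 213 FPKM in the control library. The log2 ratio of Rpl11 was 0.83, and 0.46, under 1.5-fold, after correction for length and GC content. Rpl5, the other ribosomal protein of this list, had 261.9 and 261.5 FPKM and was named after its values were seen. Aurka, a mitotic kinase, had 47.9 and 28.5 FPKM in the antagomir and control libraries.

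The list of G1 cyclins, their kinases and inhibitors also holds other cell cycle genes, such as Rb1, E2f1 and Cdc25a, and leaned upward. Of 29 genes, 11 passed the 1.5-fold limit upward and 1, Cdkn1b, downward, beside 10.8% and 13.4% of all genes. The median log2 ratio of the 29 genes was 0.40. As TPM, 10 passed the limit upward and 3 downward, beside 10.5% and 20.0% of all genes. Ccnd3, whose exons overlap those of another gene, had 8.36 FPKM in the antagomir library and 1.89 FPKM in the control library. Pcna, the sliding clamp of replication and a partner of p21, had 135 FPKM in the antagomir library and 88.8 FPKM in the control library. The kinases were within 1.5-fold, in both directions. The log2 ratio was 0.41 for Cdk2, at 2.96 and 1.98 FPKM in the antagomir and control libraries, and 0.17 for Cdk4, at 161 and 143 FPKM. It was -0.47 for Cdk6, at 5.70 and 8.29 FPKM, and -0.26 for Cdk7, at 9.02 and 11.0 FPKM, both named after their values were seen. The exons of Cdk2, Cdk4 and Cdk6 overlap those of another gene. Cdkn2d, an inhibitor of CDK4 and CDK6, was also higher, at 20.2 FPKM in the antagomir library and 9.25 FPKM in the control library. Cdkn1b had 9.67 and 15.6 FPKM in the antagomir and control libraries.

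A list of sensors and effectors of growth control by TORC1 holds genes between the sestrins or REDD1 and the complex, and also downstream or neighbouring genes such as Rps6kb1, Eif4ebp1, Sqstm1 and Txnip. In it 35 genes had at least 1 FPKM, of which 4 passed the 1.5-fold limit upward and 3 downward. These counts were 3 and 5 as TPM, 2 and 3 once corrected for length and GC content, and 2 and 1 with overlapping genes left out. Over all genes, 10.8% passed it upward and 13.4% downward, or 10.5% and 20.0% as TPM. The shares were 8.65% and 12.3% once corrected, and 11.3% and 13.8% with overlapping genes left out. The median log2 ratio of the 35 genes was -0.079. Mtor, the kinase, had 3.16 FPKM in the antagomir library and 3.99 FPKM in the control library. Tsc2, the target of REDD1, had 3.56 and 4.17 FPKM, and Rheb, the GTPase that it switches off, 31.7 and 29.2 FPKM.

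**Figure D5:**
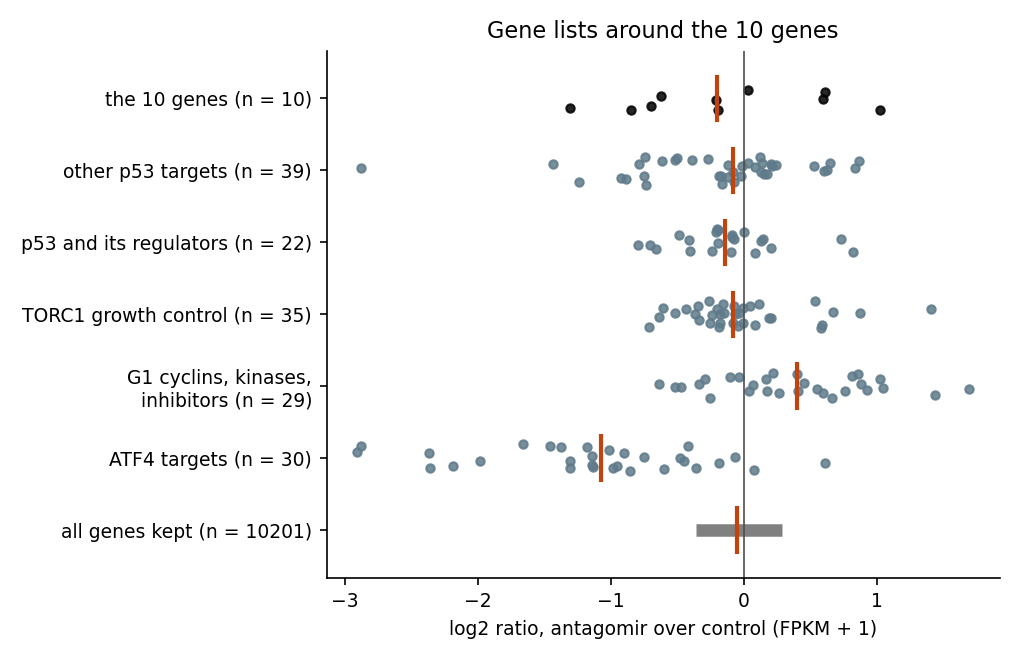
Log2 ratio (antagomir over control, FPKM + 1) of each gene in the named lists, 1 point per gene at random heights within its row, with the list's median as a red line. For all genes the grey bar spans the interquartile range, -0.36 to 0.29. The 10 genes straddle 0, the G1 list leans above 0 with a median of 0.40, and the ATF4 targets have a median of -1.07, with Ddit4 and Atf5 above 0.

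Across the whole table, the values summed to 312806 FPKM in the antagomir library and 295404 FPKM in the control library, and the read number behind these sums is not known. Of 18 cardiomyocyte markers 5 had a value, summing to 51.8 FPKM in the antagomir library and 27.4 FPKM in the control library. Myh6, Myh7, Actc1 and Ttn, which define these cells, had none in the table used here, which is not read as absence. Every line of the table had at least 0.50 FPKM in its higher library. A gene without a value may therefore lie under that level in both libraries, which was not tested. Of 12 fibroblast markers 8 had a value, summing to 1082 and 1216 FPKM. Smooth muscle markers, 5 of 7 with a value, summed to 897 and 1335 FPKM, although 3 of the 5 had a log2 ratio above 0, with a median of 0.49. Macrophage markers, 2 of 10 with a value, summed to 22.0 and 16.9 FPKM, and erythroid markers, 2 of 6, to 20.8 and 14.4 FPKM in the antagomir and control libraries. None of 10 endothelial markers had a value, and no marker with a value was at 0. The part of differing cell makeup in the values of the 10 genes was not tested.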

How the data were processed

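RNA was measured in 2 libraries, 1 antagomir and 1 control, grouped by sample title. Per the labels' protocols, TRIzol was used for extraction, poly(A) RNA was selected and libraries were made with a stranded kit. Per the submitters' processing notes, cutadapt, HISAT2 and StringTie version 1.3.3 were used on GRCm38. The sources used here give no annotation release, settings or strand use. The deposited values are gene-level FPKM, made by the authors, for 10992 lines, and lines of the 10 repeated symbols were summed. FPKM times transcript length did not give whole reads for most low values. At the best of many step sizes tried, 23.8% of 63 low antagomir values and 30.9% of 68 low control values came within 0.05 of a whole number, against 10% for evenly spread values at any 1 step, so depth is unknown and no counting interval is given.

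The log2 ratio used a pseudocount of 1, and lists and counts used genes whose higher value reached 1 FPKM. With 1 library per group no test was made. Length, GC content (longest transcript) and exon overlaps came from GENCODE release M21, and promoter windows from RefSeq. The trend was a quadratic fit of the log2 ratio on log10 length and GC content. The 10 genes, 6 gene lists and limits were chosen with earlier results of these data known. The rule named all 10 genes, from each list the 2 genes at either end reaching 5 FPKM and those differing 2-fold, and a fixed set of regulators, 59 genes in all, of which the text prints a part. Python 3.11.15, pandas 2.3.3, numpy 2.4.6 and matplotlib 3.10.9 were used, and the counting and trend code was tested on simulated data. Alternatives were pseudocounts of 0.1 and 0.01, TPM, centring on the median, rescaling to a total that leaves out ribosomal protein, hemoglobin and mitochondrial DNA genes, trend removal, other minimums, keeping the highest line of a repeated symbol, and leaving out overlapping genes or ATF4 targets.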

Additional observations from a re-analysis of the deposited data

How the results depend on the processing

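Sesn2, Plk2 and Mdm2 stayed at least 1.5-fold lower and Phlda3 at least 1.5-fold higher under the alternatives run. The other calls lay close to the limit. Ddit4 came under it as TPM (log2 ratio 0.54), after rescaling without the 3 gene families (0.57) and with the length and GC trend removed (0.42), Sesn1 as TPM (0.57), and Trp53inp1 after centring on the median (-0.57) and with the trend removed (-0.49). Genes at least 1.5-fold higher numbered 1 as TPM, beside 10.5% of all genes, against 3 beside 10.8%. At 2-fold, 0 were higher as TPM, after the rescaling and with the trend removed, against 1. At 2-fold, 2 were lower with a pseudocount of 0.01, Sesn2 and Trp53inp1, and 0 with ATF4 targets left out, against 1. With at least 5 FPKM the median of the remaining genes was -0.081. As TPM the medians of the further p53 targets, the p53 regulators and the ATF4 targets were -0.19, -0.25 and -1.23, and the last was -1.22 after the rescaling. The median of all genes moved as well, from -0.048 in the main setting to -0.13 as TPM and -0.11 after the rescaling. It was -0.024 with the trend removed, -0.039 with no minimum and -0.045 with at least 5 FPKM. The median of the relatives, -0.11, was -0.007 with the trend removed and 0.024 with no minimum. Over all genes, 2.88% were 2-fold higher in the main setting, 3.43% as TPM, 3.85% after the rescaling and 1.84% with the trend removed. The share 2-fold lower was 3.79% in the main setting, 6.63% with a pseudocount of 0.01 and 3.65% with ATF4 targets left out. With the trend removed it was 3.75%. TPM and the other rescaling raised all values while the pseudocount stayed at 1, so they also lowered its weight, most for low genes. How much of each shift this made up, and why the other values moved, was not tested. No paired analysis was possible because there was 1 library per group, and none could be left out. The unknown depth limits low genes such as Trp53inp1 most.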

Other observations

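Close relatives of the 10 genes did not all share their relative's direction. Plk3, a polo-like kinase that p53 also induces and whose exons overlap another gene, had 5.70 FPKM in the antagomir library and 14.8 FPKM in the control library, a log2 ratio of -1.24, beside -0.85 for Plk2. Plk1, the polo-like kinase of mitosis, had 36.6 FPKM in the antagomir library and 23.3 FPKM in the control library. Phlda1, a relative of Phlda3 whose exons overlap another gene, had 73.5 and 47.1 FPKM, a log2 ratio of 0.63, or 0.45 after correction for length and GC content. Ccng2, which encodes cyclin G2, had 4.12 FPKM in the antagomir library and 3.59 FPKM in the control library, a log2 ratio of 0.16, beside 0.036 for Ccng1. Over the 11 relatives that reached 1 FPKM, of 17 listed, 4 passed the 1.5-fold limit upward and 2 downward, with a median log2 ratio of -0.11. These counts were 1 and 3 as TPM, 1 and 1 once corrected for length and GC content, and 1 and 1 with overlapping genes left out. Over all genes, 10.8% passed the limit upward and 13.4% downward, or 10.5% and 20.0% as TPM. The shares were 8.65% and 12.3% once corrected, and 11.3% and 13.8% with overlapping genes left out, where fewer than 11 relatives remain. Plk1 was named after its value was seen.

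The ends of the list of TORC1 control were as follows. Lamtor4 and Lamtor2, subunits of the Ragulator scaffold, had 72.7 and 73.5 FPKM in the antagomir library, against 26.7 and 45.8 FPKM in the control library. Their log2 ratios were 1.41 and 0.67, and 1.01 and 0.098 after correction for length and GC content. Rragc, one of the Rag GTPases that Ragulator holds, had 25.1 FPKM in the antagomir library and 41.9 FPKM in the control library, although its exons overlap another annotated gene. The other members of these complexes, named after their values were seen, had log2 ratios of 0.20 for Lamtor1, -0.20 for Lamtor3, -0.069 for Lamtor5, -0.61 for Rraga and -0.43 for Rragd. Sqstm1, an autophagy receptor whose exons also overlap another gene, had 279 and 434 FPKM, a log2 ratio of -0.63.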
